A study of Mus musculus with 2 samples.

Results

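Expression of 10 genes of the transforming growth factor β (TGF-β) pathway was examined in primary vascular smooth muscle cell (VSMC) cultures. The genes were the 3 ligand genes *Tgfb1*, *Tgfb2* and *Tgfb3*, the receptor genes *Tgfbr1*, *Tgfbr2* and *Tgfbr3*, the signal transducers *Smad2* and *Smad3*, the inhibitory *Smad7*, and *Ltbp1*, which encodes a latent TGF-β binding protein. They were taken by symbol from the 31053 genes of the count tables, each symbol matched 1 gene, and all 10 passed the filter on low counts.

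TGF-β is secreted in a latent form, bound to its own propeptide and to a latent TGF-β binding protein that anchors it in the extracellular matrix, and has to be released before it can act. The active ligand binds the type II receptor, which recruits and phosphorylates the type I receptor, and the type I receptor phosphorylates SMAD2 and SMAD3, which then act on transcription in the nucleus, while SMAD7 blocks the receptor as part of a negative feedback loop. In the arterial wall the pathway is known for promoting contractile and matrix gene expression in SMCs, and inherited defects of its ligands, receptors and SMADs cause aneurysms of the thoracic aorta.

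The cells had been isolated from thoracic aortae of wildtype mice on a C57BL6/N background. Female and male mice were used, aortae of several animals were pooled for each preparation, and the cells were kept for 5 days in full medium with serum. Both libraries were 10x Genomics 3′ single-cell libraries of the same condition, biological replicates 1 and 2, without a treatment, a second genotype or fresh tissue beside them, so every comparison was made between classes of cells within the cultures. Because each preparation pooled animals and was sequenced as 1 library, animal-to-animal variation could not be seen. P-values measured only the spread between these 2 libraries, in an estimate shared by all classes. Where the library was fitted as a block, the shift common to a library was taken out. Those p-values measured only the spread that was left.

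Replicate 1 held 127949633 unique molecular identifiers (UMIs, 1 for each captured transcript molecule) and replicate 2 held 132561822. After barcodes with fewer than 300 genes, fewer than 3000 UMIs or at least 20% mitochondrial UMIs were left out, 4866 and 6824 cells remained, with a median of 22234.5 and 16310 UMIs per cell, and 9 barcodes occurred in both libraries. Levels are given as CPM, the UMIs of a gene summed over all cells of a class in 1 library, divided by all UMIs of those cells and scaled to counts per 1e6 UMIs. A 3′ library yields 1 tag per molecule, so that CPM values were not scaled to transcript length.

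Cells were put in 4 classes that did not overlap. Endothelial cells had at least 2 UMIs in at least 2 of *Pecam1*, *Cdh5*, *Cldn5* and *Gja4* (102 and 141 cells), and cycling cells had at least 6 UMIs of *Mki67*, *Top2a* and *Cenpf* together (1450 and 1651 cells). Of the remaining cells, those with at least 5 UMIs of *Myh11*, the smooth muscle myosin heavy chain of contractile SMCs, were called Myh11-high (313 and 574 cells), and those with at most 1 were called Myh11-low (2771 and 4152 cells). The 230 and 306 cells in between belonged to no class.

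The classes were checked against marker lists. The 10 contractile markers summed to 25372 and 26784 CPM in Myh11-high cells against 6388 and 3456 CPM in Myh11-low, 8480 and 7195 in cycling and 2931 and 2022 in endothelial cells. The 6 modulated SMC markers separated the Myh11 classes less, at 2899 and 2657 CPM in Myh11-high and 3509 and 4829 in Myh11-low cells. They were at 3069 and 3679 CPM in cycling and 1346 and 1416 in endothelial cells. The 10 endothelial markers, each present in the endothelial class, summed to 2535 and 2879 CPM there and to between 38.5 and 48.8 CPM in the other classes. The summed cycling markers reached 540 and 607 CPM in the endothelial class, in which 19 and 21 cells also passed the cycling rule, and 2013 and 2328 CPM in the cycling class. Median depth differed as well, with 14629 and 10250 UMIs per endothelial cell, 28598 and 21108 per cycling cell, 23754 and 18463 per Myh11-high cell and 19734 and 14544.5 per Myh11-low cell.

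The 3 ligand genes were not all highest in the same class of cells. *Tgfb1* was highest in endothelial cells, *Tgfb2* and *Tgfb3* were highest in Myh11-high cells, and *Ltbp1* had the same order of classes at its ends as *Tgfb2* and *Tgfb3*, with Myh11-high cells on top and endothelial cells at the bottom. The receptor genes differed among themselves, since *Tgfbr2* was highest in endothelial cells and *Tgfbr3* in Myh11-low cells.

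**Figure D1:**
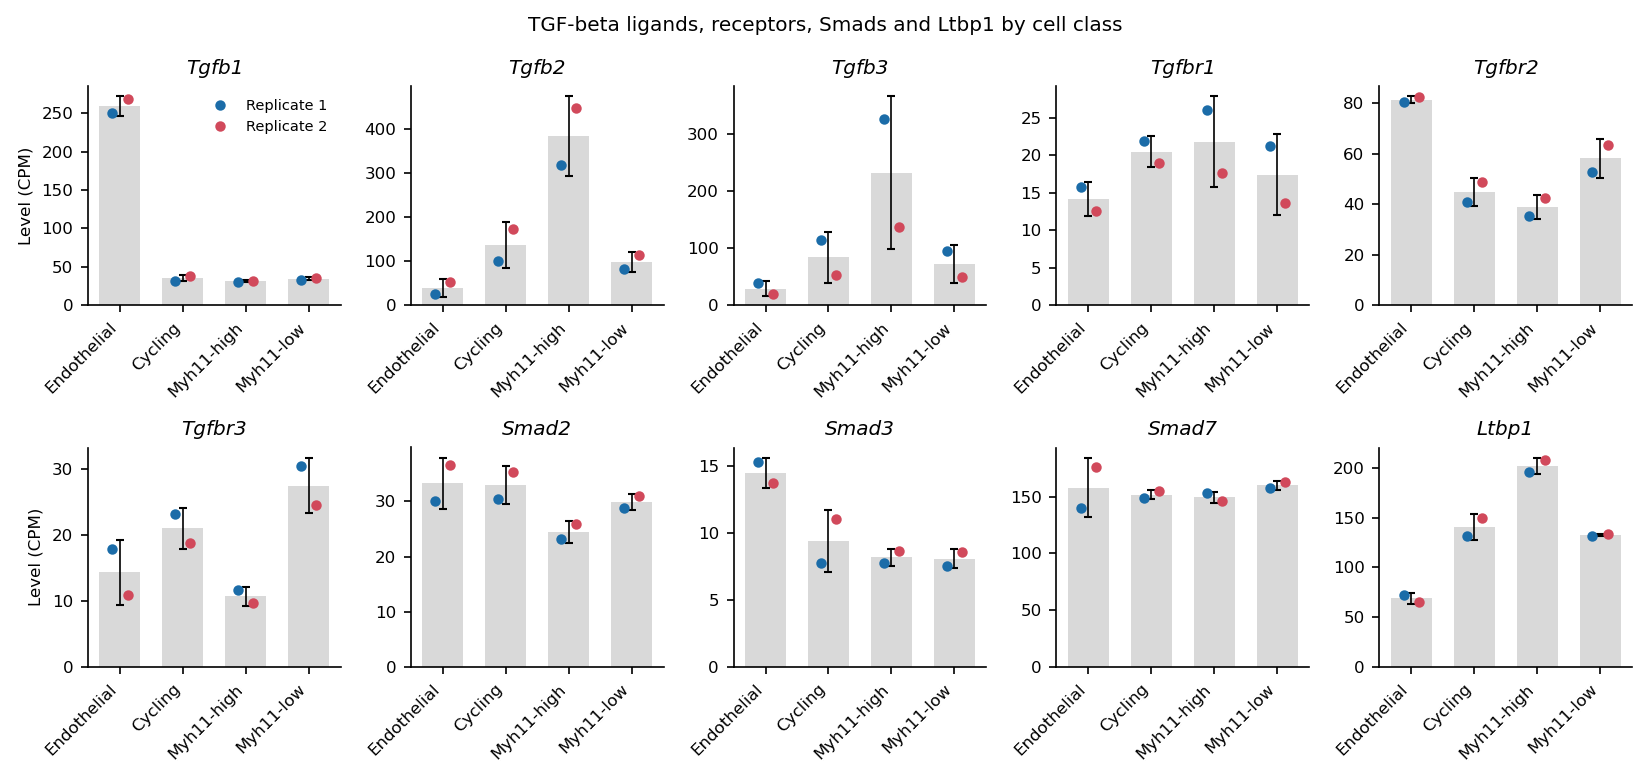
Level of each of the 10 genes in CPM (y axis, from 0, own scale per gene) in the 4 cell classes (x axis). Bars are the mean of both libraries, error bars the SD and points the libraries, and the endothelial bar stands far above the others for *Tgfb1* (259 ± 12.8 CPM) while the Myh11-high bar is the highest for *Tgfb2*, *Tgfb3* and *Ltbp1*.

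*Tgfb2* and *Ltbp1* were lower and *Tgfb1* was higher in endothelial cells than in the other classes, and for these 3 genes the 250 bases before the first listed transcription start are printed 5′ to 3′ on the strand of the gene, from RefSeq on the GRCm38.p6 assembly. *Tgfb1* lies at chr7:25686752-25687001 on the plus strand, *Tgfb2* at chr1:186705990-186706239 on the minus strand and *Ltbp1* at chr17:75005279-75005528 on the plus strand. Capitals mark CAGAC, the core of the element that SMAD3 and SMAD4 bind, or its complement GTCTG.
Tgfb1: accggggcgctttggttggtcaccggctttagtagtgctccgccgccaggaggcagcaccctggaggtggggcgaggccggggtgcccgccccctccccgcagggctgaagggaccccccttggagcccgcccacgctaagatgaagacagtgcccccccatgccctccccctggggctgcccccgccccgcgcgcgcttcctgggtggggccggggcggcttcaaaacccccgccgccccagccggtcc
Tgfb2: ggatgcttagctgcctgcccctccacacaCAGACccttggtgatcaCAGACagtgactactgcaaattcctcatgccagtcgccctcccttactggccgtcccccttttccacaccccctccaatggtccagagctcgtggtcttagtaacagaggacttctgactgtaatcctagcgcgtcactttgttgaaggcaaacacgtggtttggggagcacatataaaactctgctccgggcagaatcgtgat
Ltbp1: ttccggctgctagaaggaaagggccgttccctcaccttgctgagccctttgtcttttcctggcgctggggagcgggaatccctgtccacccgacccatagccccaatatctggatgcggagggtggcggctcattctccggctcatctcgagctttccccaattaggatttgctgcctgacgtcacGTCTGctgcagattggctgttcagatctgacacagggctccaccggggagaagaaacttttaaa
The *Tgfb2* window held 2 matches to CAGAC on either strand, the *Ltbp1* window 1 and the *Tgfb1* window 0. Of windows not printed, that of *Tgfbr2*, also higher in endothelial cells, held 1 and the second *Ltbp1* window 2. Of all 32851 promoter windows of this length in the table, 42.2% held at least 1, so the match itself sets no gene apart. Neither the AP-1 motif TGANTCA, present in 6.75% of windows, nor the CArG box bound by SRF, present in 1.47%, was found in any of the 8 windows of the members. These windows covered 6 of the 10 genes, while *Tgfb3*, *Tgfbr3*, *Smad2* and *Smad7* had none.

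*Tgfb1*, the ligand gene best known from platelets, leukocytes and endothelium (ENSMUSG00000002603, GRCm38 chr7:25687002-25705077), was measured at 249.7 and 267.8 CPM in endothelial cells of replicates 1 and 2. It was at 32.2 and 38.3 CPM in cycling, 33.0 and 36.0 in Myh11-low and 30.6 and 32.0 in Myh11-high cells. The endothelial values lay far above all others, the cycling and Myh11-low ranges overlapped, and Myh11-high cells lay just below both. Against the mean of the other 3 classes, *Tgfb1* was 6.69-fold higher in endothelial cells (log2 fold change 2.74, SE 0.09, adjusted p = 7.81e-06 with edgeR's quasi-likelihood test), and it passed under all 20 alternatives. Between Myh11-low and Myh11-high cells the log2 fold change was 0.05 (SE 0.12), with an adjusted p of 0.879 from edgeR.

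*Tgfb2* (ENSMUSG00000039239, chr1:186622792-186705989), the ligand gene needed for outflow tract and arch development, was measured at 319.7 and 448 CPM in Myh11-high cells. It was at 101 and 174 CPM in cycling, 82.7 and 115 in Myh11-low and 25.5 and 53.1 in endothelial cells. Myh11-high cells and endothelial cells stood apart at the top and at the bottom in both libraries, whereas cycling and Myh11-low cells overlapped, and replicate 2 was the higher library in every class. *Tgfb2* was 4.13-fold lower in Myh11-low than in Myh11-high cells (log2 fold change -2.05, SE 0.39, edgeR adjusted p = 0.0466, and 5.55e-05 with the library as a block). It was also 5.09-fold lower in endothelial cells than in the other classes (log2 fold change -2.35, SE 0.38, edgeR adjusted p = 0.0061). The first of these calls was lost when any 1 of the 6 Myh11-high, Myh11-low or endothelial sums was left out (adjusted p from 0.0575 to 0.184), without the filter on low counts (0.0847) and after the smaller and the larger of the free RNA corrections (0.0575 and 0.216), at log2 fold changes from -2.31 to -1.78 over the sums left out. The call in endothelial cells was lost without endothelial replicate 1 (adjusted p = 0.0506).

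*Tgfb3* (ENSMUSG00000021253, chr12:86056745-86079041) is the ligand gene known from palate closure. Its values were 326 and 137 CPM in Myh11-high, 115 and 52.6 in cycling, 95.5 and 49.0 in Myh11-low and 38.2 and 19.99 in endothelial cells. The order of the classes was the same in both libraries, but replicate 1 was the higher library in every class, and the cycling and Myh11-low ranges overlapped. Myh11-low cells were at a log2 fold change of -1.76 (SE 0.60) against Myh11-high cells, which missed the threshold (edgeR adjusted p = 0.182) and passed it with the library as a block (-1.71, SE 0.09, adjusted p = 2.59e-05) and with DESeq2 without the block (-1.77, adjusted p = 0.0382). Within the libraries the difference was -1.77 and -1.48. In endothelial cells *Tgfb3* was 4.41-fold lower than in the other classes (log2 fold change -2.14, SE 0.59, edgeR adjusted p = 0.0417), a call lost without either endothelial sum (0.129 and 0.245), without the replicate 1 sum of the cycling (0.0532), Myh11-high (0.0590) or Myh11-low cells (0.0647), without the filter on low counts (0.160) and with classes allowed to overlap (0.0587). The share of cells with a UMI in endothelial replicate 1 was no higher than the estimate from free RNA. Background could therefore make up part of the endothelial level, and how much was not tested. After the smaller free RNA correction the log2 fold change was -2.52 (adjusted p = 0.0240). Both *Tgfb2* and *Tgfb3* overlap a gene on the other strand, *Gm29491* and *Ttll5*.

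The type II receptor gene *Tgfbr2* (ENSMUSG00000032440, chr9:116084293-116175360), whose product binds the ligand first, was at 80.5 and 82.2 CPM in endothelial, 52.6 and 63.5 in Myh11-low, 40.8 and 48.7 in cycling and 35.5 and 42.3 in Myh11-high cells. The endothelial and the Myh11-low ranges were each clear of the next class, and the cycling and Myh11-high ranges overlapped. In endothelial cells *Tgfbr2* was 1.52-fold higher (log2 fold change 0.60, SE 0.12, edgeR adjusted p = 0.0147), a call lost without either endothelial sum (0.0918 and 0.109) and after thinning cells to the same depth (0.0753). Between Myh11-low and Myh11-high cells the log2 fold change was 0.49 (SE 0.15), which missed the threshold (edgeR adjusted p = 0.140) and passed it with the library as a block (0.00533).

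*Tgfbr3* (ENSMUSG00000029287, chr5:107106570-107289629) encodes betaglycan, a co-receptor that presents TGF-β2 to the type II receptor. It was at 30.5 and 24.6 CPM in Myh11-low, 23.3 and 18.8 in cycling, 17.8 and 10.9 in endothelial and 11.7 and 9.68 in Myh11-high cells. Myh11-low cells were highest and cycling cells next without overlap, and the endothelial and Myh11-high ranges overlapped. *Tgfbr3* was 2.44-fold higher in Myh11-low than in Myh11-high cells (log2 fold change 1.29, SE 0.25, edgeR adjusted p = 0.0481, and 0.000236 with the library as a block), the opposite direction to *Tgfb2*. This call was lost whichever of the 8 sums was left out (adjusted p from 0.0636 to 0.248), with size factors of DESeq2 (0.0508), with overlapping classes (0.0742), without putative doublets (0.0640) and after the larger of the free RNA corrections (0.133). The log2 fold change was between 1.10 and 1.42 over the sums left out and 3.97 after that correction. In endothelial cells the log2 fold change was -0.55 (SE 0.25, edgeR adjusted p = 0.157), and with the block it passed (0.0207).

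*Tgfbr1* (ENSMUSG00000007613, chr4:47353222-47414931), which encodes the type I receptor kinase that phosphorylates the SMADs, was at 26.1 and 17.6 CPM in Myh11-high, 21.9 and 18.98 in cycling, 21.2 and 13.6 in Myh11-low and 15.8 and 12.6 in endothelial cells. All neighbouring classes overlapped. *Tgfbr1* was not called in either comparison without the block. The log2 fold changes were -0.40 (SE 0.29, edgeR adjusted p = 0.542) in Myh11-low against Myh11-high cells and -0.68 (SE 0.29, adjusted p = 0.143) in endothelial cells. The latter passed with the library as a block (0.0247). It also passed after the larger of the free RNA corrections (-1.78, adjusted p = 0.0355), which counts some expression as free RNA.

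*Smad2* and *Smad7* levels differed little between classes, and those of *Smad3* were highest in endothelial cells. *Smad2*, on chromosome 18, was at 30.1 and 36.5 CPM in endothelial, 30.5 and 35.3 in cycling, 28.9 and 31.0 in Myh11-low and 23.1 and 25.9 in Myh11-high cells. *Smad3* (ENSMUSG00000032402, chr9:63646767-63757994) was at 15.3 and 13.7 CPM in endothelial, 7.78 and 11.04 in cycling, 7.75 and 8.65 in Myh11-high and 7.57 and 8.61 in Myh11-low cells. *Smad7*, also on chromosome 18 and itself a target gene of the pathway, was at 157 and 163 CPM in Myh11-low, 139.6 and 176 in endothelial, 149 and 155 in cycling and 153 and 146 in Myh11-high cells. Neighbouring classes overlapped for all 3 genes, except that endothelial *Smad3* was above, and Myh11-high *Smad2* below, all other values.

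None of the 3 *Smad* genes passed in either comparison with edgeR. In Myh11-low against Myh11-high cells the log2 fold changes were 0.20 (SE 0.14, adjusted p = 0.537) for *Smad2*, -0.10 (SE 0.21, adjusted p = 0.864) for *Smad3* and 0.02 (SE 0.13, adjusted p = 0.974) for *Smad7*. The largest value in endothelial cells was that of *Smad3*, at 0.56 (SE 0.20, adjusted p = 0.0869).

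*Ltbp1* (ENSMUSG00000001870, chr17:75005568-75392512), whose product stores latent TGF-β in the matrix, was at 196 and 207 CPM in Myh11-high, 131 and 149.7 in cycling, 132 and 133 in Myh11-low and 72.4 and 65.1 in endothelial cells. As for *Tgfb2*, the Myh11-high and endothelial classes stood apart at both ends and the cycling and Myh11-low classes overlapped. *Ltbp1* was 1.61-fold lower in Myh11-low than in Myh11-high cells (log2 fold change -0.69, SE 0.12, edgeR adjusted p = 0.0322, and 0.00109 with the library as a block). In endothelial cells it was 2.60-fold lower than in the other classes (log2 fold change -1.38, SE 0.11, adjusted p = 0.000275), which passed under all 20 alternatives. The difference between Myh11-low and Myh11-high cells lost its call when any 1 sum other than cycling replicate 1 was left out (log2 fold change from -0.74 to -0.65). It also lost its call after the larger of the free RNA corrections (edgeR adjusted p = 0.479).

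Counted over the members, the comparison of Myh11-low with Myh11-high cells called 3 of 10, *Tgfbr3* higher and *Tgfb2* and *Ltbp1* lower, beside 3.27% of the 14095 genes tested (0.866% higher and 2.41% lower). The median log2 fold change of the 10 members was -0.04 and that of all genes 0.03. With the library as a block 5 of 10 passed, with *Tgfbr2* higher and *Tgfb3* lower in addition, but 22.7% of all genes did. The comparison called 0 to 2 members when 1 sum was left out. Within replicates 1 and 2, the 5 members that passed with the block were at log2 fold changes of -1.95 and -1.96 for *Tgfb2*, -1.77 and -1.48 for *Tgfb3*, 1.35 and 1.30 for *Tgfbr3*, -0.57 and -0.63 for *Ltbp1* and 0.56 and 0.58 for *Tgfbr2*. The blocked fit favours genes whose difference is alike in both libraries, so their shared direction was largely set by this choice and adds no support.

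**Figure D2:**
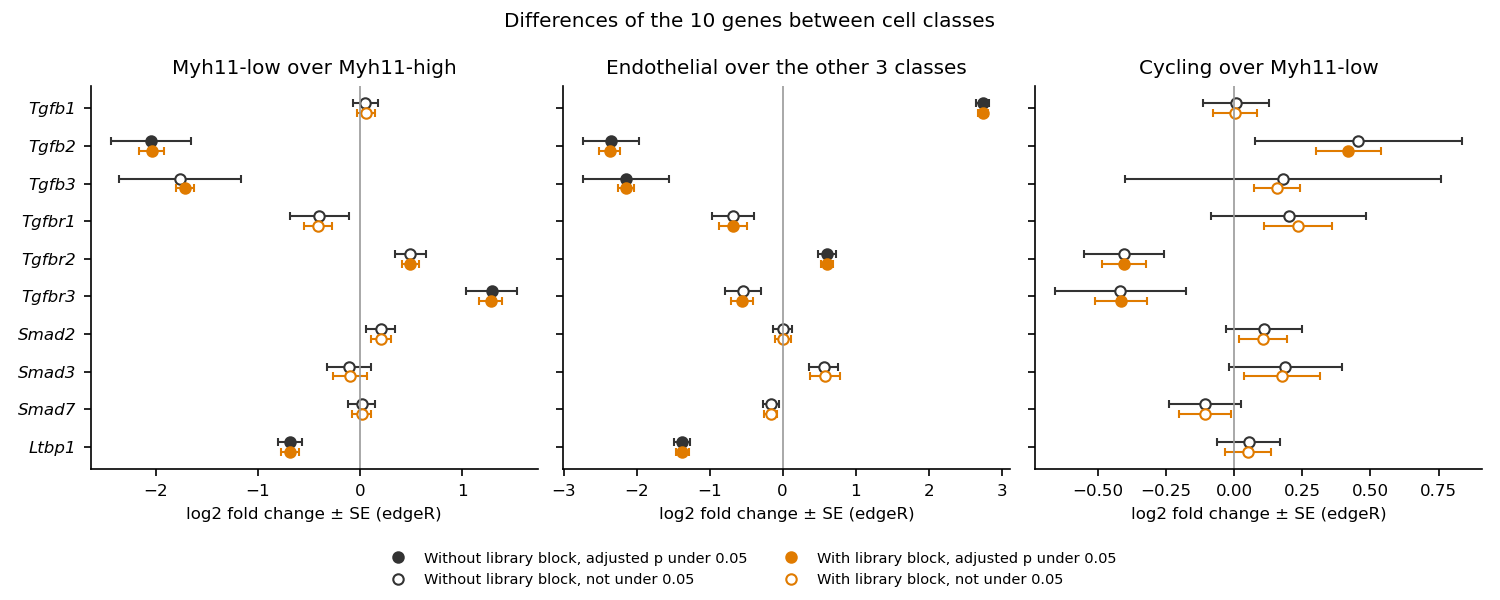
Log2 fold change (x axis, ± SE) of each member (y axis) in 3 comparisons, from the fit without (black) and with (orange) the library as a block, with filled symbols at an adjusted p under 0.05. *Tgfb2* and *Ltbp1* lie left of 0 and *Tgfbr3* right of 0 for Myh11-low against Myh11-high cells, and *Tgfb1* stands alone at 2.74 on the right for endothelial cells.

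The classes cut a continuous range of *Myh11* counts, so levels were also followed over 6 bins of *Myh11* UMIs in non-cycling, non-endothelial cells, as a description without a test. *Tgfb2* was at 79.7 CPM with 0 *Myh11* UMIs, 195 with 5 to 9 and 497 with 20 or more in replicate 1, and at 111, 413 and 516 CPM in replicate 2. *Ltbp1* was at 134, 152 and 264 CPM in the same bins of replicate 1 and at 134, 185 and 235 CPM in replicate 2. *Tgfb3* was at 87.1, 307 and 378 CPM in replicate 1 and at 45.8, 99.9 and 241 CPM in replicate 2. It did not go up at every step. In replicate 1 it was at 284 CPM with 10 to 19 *Myh11* UMIs, and in replicate 2 at 109 CPM with 2 to 4. The values of *Tgfb2* went up at every step in both libraries, while *Ltbp1* was lowest at 1 *Myh11* UMI, and replicate 2 reached most of its *Tgfb2* level already at 2 to 4 *Myh11* UMIs (312 CPM). *Tgfbr3* ran the other way, from 31.3 and 25.3 CPM at 0 *Myh11* UMIs to 8.87 and 4.50 CPM at 20 or more, and *Tgfbr2* fell from 53.6 and 64.2 to 32.7 and 39.0 CPM. Neither fell at every step. In replicate 2 *Tgfbr3* was at 8.22 CPM with 2 to 4 and 14.9 with 5 to 9 *Myh11* UMIs, and its last bin held 9 UMIs. In replicate 1 *Tgfbr2* was at 30.8 CPM with 10 to 19, below its last bin. *Smad7* kept between 134 and 165 CPM in all bins. The bins held from 82 to 3840 cells. From the first to the last bin the median depth rose from 19679.5 to 27814 UMIs per cell in replicate 1 and from 14535.5 to 22018 in replicate 2. In replicate 1 it dipped from 20364 at 1 to 19682.5 at 2 to 4 *Myh11* UMIs. The part of depth in these values was not tested.

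**Figure D3:**
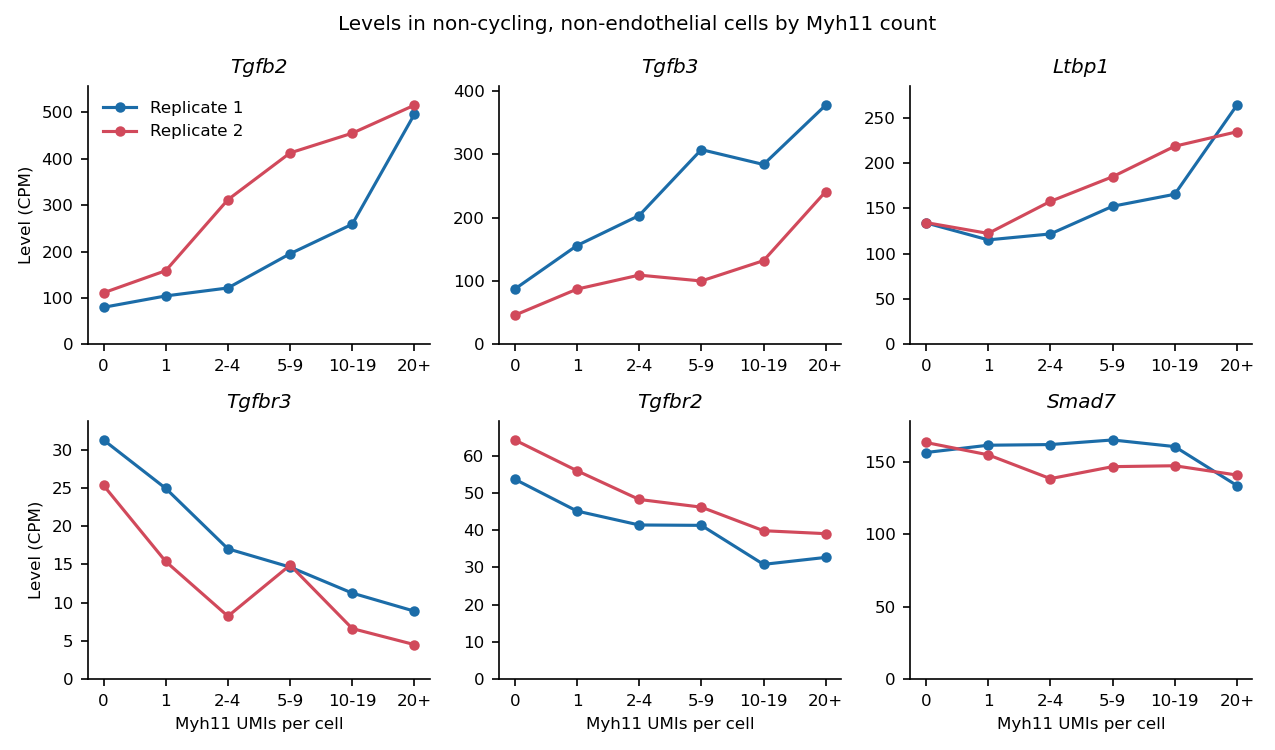
Level in CPM (y axis, from 0) of 6 members over bins of *Myh11* UMIs per cell (x axis: 0, 1, 2 to 4, 5 to 9, 10 to 19, 20 or more), 1 line per library. The lines of *Tgfb2* climb to 497 and 516 CPM in the last bin, those of *Tgfbr3* and *Tgfbr2* end below their start, and those of *Smad7* stay between 134 and 165 CPM.

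Endothelial cells differed from the other classes in 5 of 10 members, *Tgfb1* and *Tgfbr2* higher and *Tgfb2*, *Tgfb3* and *Ltbp1* lower, beside 23.6% of all genes (11.6% higher and 12.0% lower). The members' median log2 fold change was -0.35 against -0.08 for all genes. With the library as a block 7 of 10 passed beside 36.5% of all genes, *Tgfbr1* and *Tgfbr3* being lower in addition. Between 2 and 5 members were called when 1 sum was left out, and *Tgfb1* and *Ltbp1* were always among them. The class consisted of 243 cells in all, and few of them were strong in *Myh11* (4 and 3 cells with at least 5 UMIs). Summed macrophage markers were at 8.15 and 23.4 CPM in this class, with *Adgre1*, *C1qa*, *C1qb* and *Ptprc* at 0 in both libraries. *Cd68* and *Csf1r*, the rest of that list, made up these sums. In the other classes the sums were 15.5 and 4.04 CPM (cycling), 5.72 and 3.60 (Myh11-high) and 16.0 and 9.26 (Myh11-low).

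Cycling and Myh11-low cells lay next to each other in the order of *Tgfb1*, *Tgfb2*, *Tgfb3*, *Tgfbr1*, *Tgfbr2*, *Tgfbr3*, *Smad2* and *Ltbp1* levels. Without the block 0 of 10 members were called with edgeR between cycling and Myh11-low cells, beside 5.11% of all genes. An unadjusted p under 0.05 was reached by 1 member (*Tgfbr2*, log2 fold change -0.40, SE 0.15, adjusted p = 0.248) and by 2178 of the 14095 genes tested. DESeq2 called 0 members, beside 1264 genes. With the library as a block 3 members passed beside 22.6% of all genes, *Tgfb2* at 0.42 (adjusted p = 0.0394), *Tgfbr2* at -0.40 (adjusted p = 0.00967) and *Tgfbr3* at -0.41 (adjusted p = 0.0166). The cycling class mixed cells of all *Myh11* counts, and in cycling cells with at most 1 *Myh11* UMI (1183 and 1210 cells) the log2 fold change of *Tgfb2* was -0.09 (SE 0.27) and that of *Tgfb3* -0.17 (SE 0.69) against non-cycling cells of that range. There 0 of 10 members were called with edgeR beside 5.61% of all genes. An unadjusted p under 0.05 was reached by 0 members, beside 2081 of 13358 genes, and DESeq2 called 0 members. In the blocked fit 1 member passed beside 23.2% of all genes, *Tgfbr2* at -0.30 (SE 0.07, adjusted p = 0.0233).

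Among Myh11-high cells, 160 and 305 were cycling, and in these *Tgfb2* was at 264 and 341 CPM, *Tgfb3* at 250.4 and 85.6, *Tgfbr2* at 27.2 and 37.0 and *Ltbp1* at 164 and 195 CPM. Each of these values was below that of the non-cycling Myh11-high cells of the same library. These genes are the ones that the fit with the library as a block called. That fit favours differences alike in both libraries, so their shared direction was largely set by this choice and adds no support. With edgeR 0 of 10 members were called, beside 5.0% of all genes. An unadjusted p under 0.05 was reached by 0 members, beside 2255 of 13358 genes, and DESeq2 called 0 members. With the library as a block 4 members passed, all lower in cycling cells, beside 17.9% of all genes (7.73% lower), at log2 fold changes of -0.43 for *Tgfb2* (adjusted p = 0.00334), -0.62 for *Tgfb3* (0.0189), -0.37 for *Tgfbr2* (0.0244) and -0.26 for *Ltbp1* (0.0486). Whether the difference between cycling and non-cycling cells itself depended on *Myh11* was tested as an interaction. In it 0 of 13358 genes (0.0%) were called with edgeR, 96 had an unadjusted p under 0.05, none of them a member, and DESeq2 called 0. With the library as a block 0 genes were called as well, and 591 had an unadjusted p under 0.05. Among these were 3 of the 10 members, the ligand genes. Their cycling difference in Myh11-low minus that in Myh11-high cells was -0.29 for *Tgfb1*, 0.33 for *Tgfb2* and 0.43 for *Tgfb3* (log2). These values passed no adjusted threshold, and the missing calls do not show that the difference was the same in both ranges.

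The share of cells with at least 1 UMI depends on depth and on free RNA in the droplets, so that shares were read beside those of cells thinned to 3000 UMIs and beside the share that free RNA alone would give. *Tgfb1* was found in 84.3% (75.8 to 90.8%) and 85.1% (78.1 to 90.5%) of endothelial cells and in 43.5% and 39.6% of Myh11-low cells (exact binomial intervals, which like all intervals here cover counting error only). After thinning, the shares were 49.5% and 52.0% in endothelial against 9.18% and 10.2% in Myh11-low cells, and free RNA would give up to 6.29% in the unthinned cells of both classes. *Tgfb2* was found in 81.8% (77.1 to 85.9%) and 97.2% (95.5 to 98.4%) of Myh11-high cells and in 49.2% and 52.9% of Myh11-low cells, beside 16.3% and 9.29% and 14.2% and 7.50% from free RNA. Thinned, these were 48.0% and 67.7% against 17.1% and 21.9%.

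Shares of *Tgfb3* and *Ltbp1* had the same order of Myh11-high over Myh11-low cells. For *Tgfb3* they were 90.1% and 68.6% in Myh11-high and 62.2% and 36.7% in Myh11-low cells (thinned, 54.6% and 28.6% against 21.8% and 12.2%). Free RNA would give 27.7% and 6.04% of *Tgfb3* in Myh11-high and 24.1% and 4.86% in Myh11-low cells. For *Ltbp1* they were 80.5% and 89.5% against 61.6% and 64.5% (thinned, 39.2% and 43.9% against 25.3% and 27.6%), beside 26.5% and 12.7% and 23.1% and 10.3% from free RNA. In endothelial cells the share of *Tgfb3* in replicate 1 (17.6%) was below what free RNA would give (21.1%), while in replicate 2 it was 12.8% beside 3.72%. The estimate was itself too high for *Myh11* in endothelial cells, at 15.3% and 6.18% beside 6.86% and 2.84% found. Whether the *Tgfb3* share of replicate 1 was background was not tested. *Tgfb2* was found in 22.5% and 21.99% of endothelial cells, beside 12.4% and 5.76% from free RNA. *Smad7* was the most even, with thinned shares between 33.5% and 38.7% in all classes, and *Smad3* was found in 2.33% to 4.23% of thinned cells. *Emcn*, an endothelial gene that no class rule used but the free RNA estimate did, was found in 72.5% and 80.9% of endothelial cells and in 0.174% to 1.28% of cells of the other classes.

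**Figure D4:**
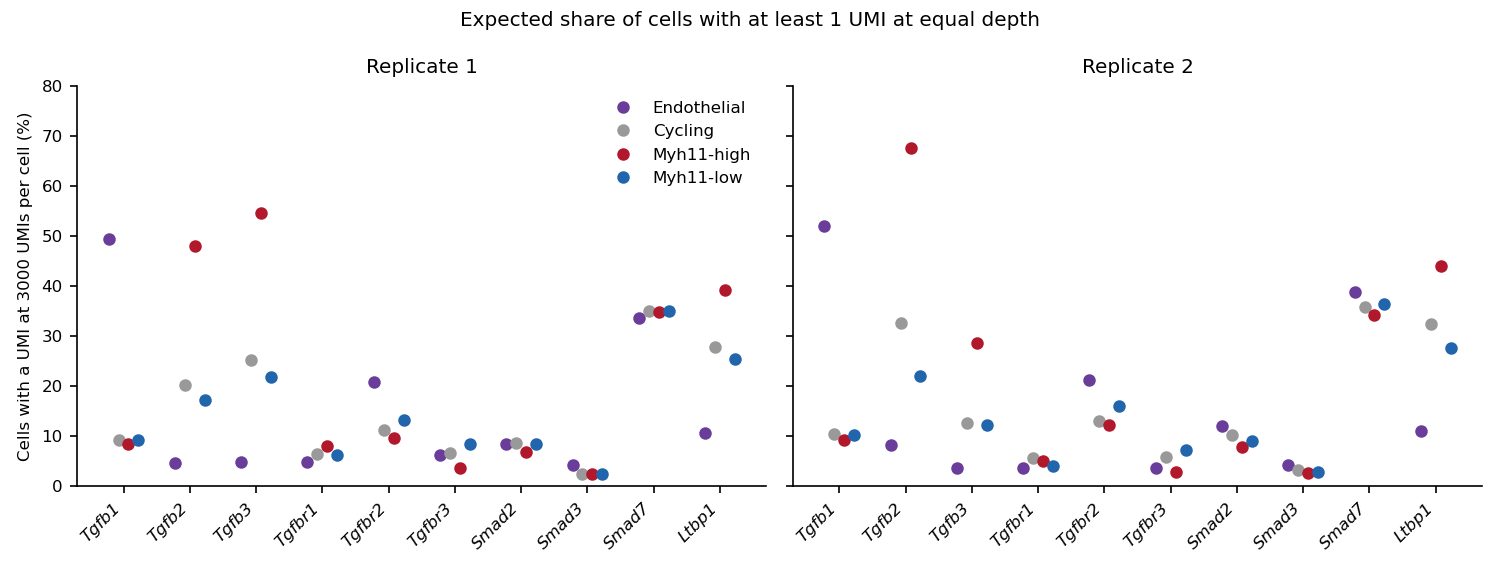
Share of cells with at least 1 UMI of each member (y axis, percent) after thinning every cell to 3000 UMIs, for the 4 classes (colours) and in 1 panel per library. Endothelial cells lead for *Tgfb1* (49.5% and 52.0%) and Myh11-high cells for *Tgfb2*, *Tgfb3* and *Ltbp1*, while the *Smad7* symbols lie together between 33.5% and 38.7%.

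Other genes of the pathway were counted in 4 lists that hold none of the 10 members: latent complex and activation (20 genes), other receptors, SMADs and regulators (24), genes known to be induced by TGF-β (17) and activin ligands with follistatins (8, of which *Mstn* was too low to be tested). Between Myh11-low and Myh11-high cells the first list had 1 gene higher and 2 lower, with a median log2 fold change of 0.05. The receptor list had 1 higher and 0 lower (median 0.18), the induced genes 2 higher and 2 lower (median -0.50), and the activin list 0 higher and 1 lower (median -0.32), beside a median of 0.03 for all genes, of which 3.27% were called. With the library as a block these counts were 3 and 4, 8 and 4, 3 and 7, and 0 and 3, beside 22.7% of all genes.

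Among latent complex and activation genes, both that fell in Myh11-low cells encode integrin β subunits, which form receptors for matrix and for latent TGF-β. *Itgb3* was at 18.8 and 17.9 CPM in Myh11-high and 3.55 and 3.69 in Myh11-low cells (log2 fold change -2.42, SE 0.20, edgeR adjusted p = 0.00606), and *Itgb1* at 1254 and 1057 against 762 and 652 CPM (-0.79, SE 0.15, adjusted p = 0.0440). *Aspn*, which encodes the small proteoglycan asporin, was higher, at 98.9 and 84.3 against 40.8 and 26.2 CPM (1.37, SE 0.26, adjusted p = 0.0464). *Acvr1b*, an activin type I receptor, was also higher in Myh11-low cells, at 4.74 and 3.84 against 1.40 and 1.54 CPM (1.46, SE 0.27, adjusted p = 0.0428). The call of *Itgb3* held whichever of the 8 sums was left out, those of *Itgb1* and *Acvr1b* were lost each time (adjusted p from 0.0636 to 0.201 and from 0.0731 to 0.194), and that of *Aspn* was lost without either endothelial sum, either Myh11-low sum or Myh11-high replicate 2 (up to 0.194). The larger of the free RNA corrections also ended the calls of *Itgb3* (0.149), *Itgb1* and *Acvr1b*, overlapping classes those of *Itgb1* and *Acvr1b*, thinning that of *Acvr1b* and leaving out putative doublets that of *Aspn*, at adjusted p up to 0.0848 for *Itgb1*, 0.603 for *Acvr1b* and 0.0662 for *Aspn*.

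The called TGF-β-induced genes went both ways between Myh11-low and Myh11-high cells. *Ctgf*, a secreted matricellular factor, was at 844 and 1027 CPM in Myh11-low against 1655 and 1943 in Myh11-high cells (log2 fold change -1.03, SE 0.14, edgeR adjusted p = 0.0201). *Postn*, which encodes the matrix protein periostin, was at 40.9 and 46.0 against 96.2 and 93.8 CPM (-1.21, SE 0.22, adjusted p = 0.0414). In the other direction, *Igfbp3*, an insulin-like growth factor binding protein, was at 48.3 and 85.9 against 18.0 and 16.5 CPM (1.87, SE 0.30, adjusted p = 0.0290), and *Snai2*, a transcription factor of mesenchymal cells, at 56.3 and 62.6 against 29.7 and 35.4 CPM (0.78, SE 0.14, adjusted p = 0.0397). *Fstl3*, a secreted inhibitor of activin, was lower in Myh11-low cells, at 19.5 and 17.7 against 58.6 and 74.8 CPM (-1.93, SE 0.26, adjusted p = 0.0190). In these 9 list genes the Myh11-low and Myh11-high values of the libraries did not overlap. They were named because they were called in this comparison, so the lack of overlap adds no support. With 1 sum left out, the calls of *Snai2* were always lost (adjusted p from 0.0627 to 0.226), those of *Postn* without any sum but the cycling ones (up to 0.154), those of *Ctgf* without either endothelial or Myh11-low sum or Myh11-high replicate 2 (up to 0.106), those of *Igfbp3* without either endothelial or Myh11-high sum or Myh11-low replicate 2 (up to 0.167), and those of *Fstl3* without either Myh11-low sum or Myh11-high replicate 2 (up to 0.115). Thinning ended the calls of *Igfbp3* (0.0543), *Postn* and *Snai2*, the larger of the free RNA corrections those of *Postn* and *Snai2*, and leaving out putative doublets that of *Snai2*, at adjusted p up to 0.116 for *Postn* and 0.210 for *Snai2*.

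In endothelial cells the lists moved further. Of the latent complex and activation genes 4 were higher and 8 lower (median log2 fold change -1.04), of the receptors, SMADs and regulators 9 higher and 1 lower (0.29), of the induced genes 1 higher and 12 lower (-1.39), and of the 7 tested activin list genes 0 higher and 2 lower (-0.64), beside a median of -0.08 for all genes, of which 23.6% were called. With the library as a block the counts were 4 and 11, 11 and 1, 1 and 13, and 0 and 3, beside 36.5% of all genes. In the cycling comparisons 0 genes of any list were called with edgeR. Of the 68 list genes tested between cycling and Myh11-low cells 3 had an unadjusted p under 0.05, beside 2178 of all 14095 genes. Of the 67 tested within Myh11-high cells 6 did, beside 2255 of all 13358 genes. Between cycling and Myh11-low cells DESeq2 called *Itgb3* (log2 fold change 0.86, adjusted p = 0.00303) and *Aspn* (log2 fold change -0.91, adjusted p = 0.0431), beside 1264 of all genes. Within Myh11-high cells it called 0 list genes. In the blocked fit the lists had 1 gene higher and 3 lower, 0 and 1, 1 and 3, and 0 and 1 between cycling and Myh11-low cells, beside 22.6% of all genes. Within Myh11-high cells the counts were 0 and 4, 1 and 1, 0 and 3, and 0 and 1 (17.9% of all genes), and within Myh11-low cells 0 and 6, 0 and 0, 0 and 3, and 0 and 1 (23.2%).

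The co-receptor gene *Eng* and the type I receptor gene *Acvrl1*, both known for their part in endothelial signalling, were among the higher genes of the receptor list. *Eng* was at 634 and 549 CPM in endothelial cells against 36.1 to 72.8 CPM elsewhere (log2 fold change 3.13, SE 0.16, edgeR adjusted p = 4.2e-05), and *Acvrl1* at 119 and 98.8 against 17.2 to 28.6 CPM (2.05, SE 0.11, adjusted p = 5.29e-05). *Ski*, a repressor of SMAD-driven transcription, was the gene of that list that was lower (-0.38, SE 0.10, adjusted p = 0.0355). *Ltbp4*, another latent TGF-β binding protein gene, was at 126 and 105 CPM in endothelial cells and 5.05 to 7.75 CPM elsewhere (4.02, SE 0.16, adjusted p = 1.53e-05), the opposite direction to *Ltbp1*. The calls of *Eng*, *Acvrl1* and *Ltbp4* held whichever of the 8 sums was left out, and that of *Ski* was lost each time (adjusted p from 0.0673 to 0.166), and also with DESeq2, its size factors, no filter, overlapping classes or thinning (up to 0.125).

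*Nrros*, which encodes a cell-surface anchor of latent TGF-β, was at 6.11 and 6.28 CPM in endothelial cells and 0.0807 to 0.200 CPM elsewhere (log2 fold change 5.32, SE 0.46, edgeR adjusted p = 0.00047). These levels rest on few UMIs, as 3 UMIs were 1.53 and 1.71 CPM in endothelial cells and 0.0807 CPM in cycling cells of replicate 2. *Nrros* was tested in 19 of the 20 alternatives. *Nrros* is also known from macrophages, whose summed markers were at 8.15 and 23.4 CPM in the endothelial class. Those sums came from *Cd68* and *Csf1r*, with *Adgre1*, *C1qa*, *C1qb* and *Ptprc* at 0. The part of such cells in the *Nrros* value was not tested. The lower induced genes with the largest change were *Postn* (-2.35, SE 0.25, edgeR adjusted p = 0.000988) and *Eln*, the elastin gene (-2.56, SE 0.68, adjusted p = 0.0374). These log2 fold changes are against the mean of the other 3 classes. *Eln* was at 69.3 and 196 CPM in endothelial cells and at 1285 and 2446 CPM in Myh11-high cells, only 1 of those classes. *Igfbp3* was the 1 induced gene that was higher in endothelial cells, at 102 and 131 CPM (1.38, SE 0.23, adjusted p = 0.00677). *Inhba*, the gene of the activin βA subunit, was lower, at 146 and 139 CPM (-1.56, SE 0.24, adjusted p = 0.00517), as was *Fstl3* (-2.01, SE 0.30, adjusted p = 0.00411). Calls were lost without either endothelial sum for *Inhba* (up to 0.0624) and *Eln* (up to 0.209, also without Myh11-high replicate 2), and without endothelial replicate 2 for *Igfbp3* (0.0843), while those of *Nrros*, *Postn* and *Fstl3* held. The larger of the free RNA corrections ended the calls of *Inhba* (0.0987) and *Eln*, and no filter on low counts that of *Eln* (up to 0.159).

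**Figure D5:**
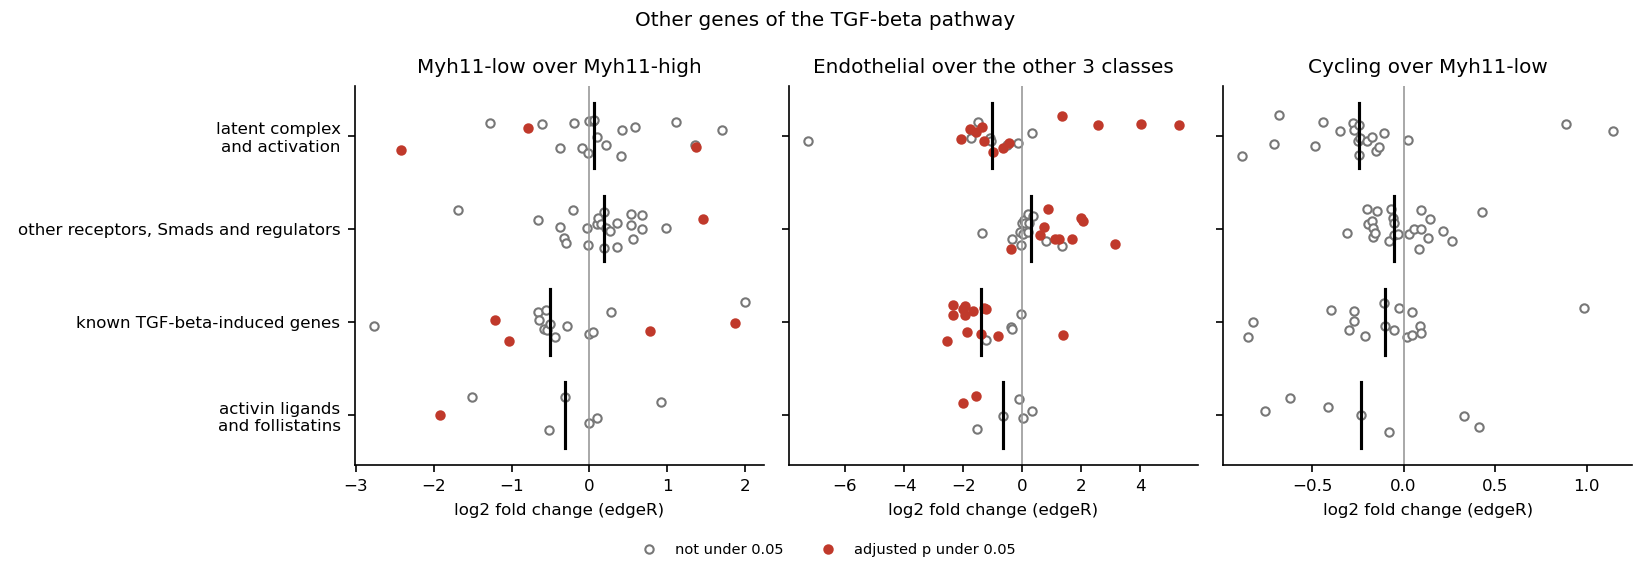
Log2 fold change (x axis) of every tested gene of the 4 pathway lists (y axis, vertical scatter within a list has no meaning) in 3 comparisons, with called genes in red and the list's median as a black line. For endothelial cells most red points of the induced genes lie left of 0 (12 of 13), most of those of the receptor list lie right of it (9 of 10), and the panel of cycling against Myh11-low cells holds no red point.

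For each member, the genes whose levels ran most alike over the 8 sums (4 classes in 2 libraries) were looked up among 8069 genes by Pearson’s r of log2(CPM + 1). These sums share libraries and depth, and r is given as a description. *Tgfb1* was nearest to *Rapgef5* (0.999) and *Fam222b* (0.998). *Tgfb2* was nearest to *Cobl* (0.993) and *Cap2* (0.987). *Tgfb3* was nearest to *Tpm1* (0.999), the gene of a tropomyosin, and *Cald1* (0.992), that of caldesmon, both parts of the contractile apparatus. *Ltbp1* was nearest to *Ppp1r12b*, which encodes a regulatory subunit of myosin phosphatase, and the cofilin gene *Cfl1* (0.996 each). *Tgfbr1* was nearest to *Wdr1* (0.959) and *Mprip* (0.958), and *Tgfbr2* to *Slc37a3* (0.995) and *Llph* (0.990). *Tgfbr3* was nearest to *Fasn*, the gene of fatty acid synthase (0.982), and *Serpina3n* (0.975). The *Smad* genes were nearest to *Cdc37l1* (0.980) for *Smad2*, *2610008E11Rik* (0.981) for *Smad3* and *Trap1* (0.955) for *Smad7*. Between members, r was 0.928 for *Tgfb2* and *Ltbp1*, 0.920 for *Tgfb1* and *Smad3*, and -0.916 for *Tgfb1* and *Ltbp1*.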

How the data were processed

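The deposited tables held raw UMI counts per gene and barcode, which the authors made with Cell Ranger (version 3.0.2 per the labels and 3.0.2 and 3.1.0 in the file headers) on mm10. Of 31053 genes, 14095 passed filterByExpr for the 8 sums of 4 classes in 2 libraries and 13358 for the 8 sums of cycling and non-cycling cells. Counts were summed per class and library, normalized by TMM and tested with edgeR 4.0.16 (quasi-likelihood, R 4.3.3) at a Benjamini-Hochberg adjusted p of 0.05 over all genes tested. SE is the log2 fold change divided by the square root of F.

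The members, classes, lists and tests were chosen with earlier results of these data known. Sums of the same library came from the same culture, and deviations from the class means correlated between classes in every pair (r from 0.229 to 0.828), so the library was also fitted as a block. DESeq2 1.42.0 was an alternative. Over genes, the counts of both libraries differed by far more than sampling noise (median chi-square 19.0), and they were treated as separate samples.

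Cells were thinned to 3000 UMIs for shares (Python 3.11.15, numpy 2.4.6, scipy 1.17.1), and cells below this depth had already been left out. Free RNA was measured in barcodes with at most 100 UMIs and scaled by 5 endothelial genes (65.3% and 50.0% of UMIs in non-endothelial cells, the larger correction). *Kdr* alone gave 55.7% and 45.3%, and *Flt1* alone 121% and 128%, which is more than all UMIs. The larger correction thus counts some expression as free RNA, and calls that it ended or added are read with this limit. As *Flt1* and *Kdr* were counted in non-endothelial cells, *Tie1* and *Emcn* alone (10.2% and 5.65%, the smaller correction) were used for the shares, a choice made after the data were seen. They had the lowest estimates of the 5 genes. *Egfl7*, left out as well, gave 30.9% and 24.3%, so the shares from free RNA could be too low. For *Myh11* in endothelial cells they were too high, at 15.3% and 6.18% beside 6.86% and 2.84% found. The shares from free RNA are therefore rough in both directions. Putative doublets were left out in an alternative. These were the 5% deepest cells of each library and endothelial cells with at least 5 *Myh11* UMIs. Named list genes were the 2 called genes with the largest log2 fold change in each direction per list, and likeness was Pearson's r of log2(CPM + 1) among genes with a mean of at least 10 CPM. Tests were checked on simulated counts, drawn without a library shift shared by the classes. Log2 changes of 1 were recovered for 23% of changed genes in Myh11-low against Myh11-high and 37% in endothelial cells. For cycling against Myh11-low and cycling within Myh11-high cells it was 32% and 28%. For changes of 2 these were 85%, 90%, 89% and 90%, and false calls were 6.90%, 4.51%, 9.70% and 7.81% of calls. A missing call therefore does not show that a level was unchanged. Coordinates are those of GENCODE M21, and 31011 of the gene identifiers matched it.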

Additional observations from a re-analysis of the deposited data

How the results depend on the processing

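Only 2 libraries and 8 sums entered each fit, and leaving out a whole library left a value without a test. Rare classes limited depth, the endothelial class holding 243 cells. Counts of genes called in Myh11-low against Myh11-high cells were 3198 with the library as a block, 1312 with DESeq2, 709 with classes cut per 10000 UMIs and 80 to 373 with 1 sum left out. The members called were 5 with the block, 0 after the larger free RNA correction and 0 to 2 with 1 sum left out. For endothelial cells 5151 genes were called with the block, 2051 after thinning and 1510 to 3049 with 1 sum left out, and 2 to 5 members with 1 sum left out. For cycling against Myh11-low cells the genes called were 3188 with the block, 1264 with DESeq2, 231 with overlapping classes, 267 after the larger free RNA correction and 323 to 689 with 1 sum left out, and the members 3 with the block. For cycling cells within the Myh11-high range they were 2385 with the block, 365 after thinning and 302 to 490 with 1 sum left out, and the members 4 with the block. The block changed the call of no other member than those given with the results.

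Directions turned only for log2 fold changes that had not passed the threshold without the block. In Myh11-low against Myh11-high cells, thinning gave 0.27 for *Smad3* and -0.026 for *Smad7*. In endothelial cells thinning gave 0.11 for *Tgfbr3*, and the larger and smaller free RNA corrections gave -0.077 and -0.0071 for *Smad2*. For cycling against Myh11-low cells *Tgfb1* was at -0.022 with DESeq2 size factors, -0.023 with DESeq2, -0.0051 without the filter, -0.061 with overlapping classes, -0.12 after thinning, -0.0060 without putative doublets and -0.037 with cycling cells of at most 1 *Myh11* UMI. These last cells gave -0.092 for *Tgfb2*, -0.17 for *Tgfb3* and -0.034 for *Ltbp1*, and thinning gave -0.12 for *Smad2* and -0.11 for *Smad3*. Within Myh11-high cells *Tgfbr1* was at 0.027 with the block and 0.0057 with classes cut per 10000 UMIs, which put *Tgfbr3* at -0.043, and *Smad3* was at -0.0014 with cells of at least 1000 UMIs and -0.0081 after the larger free RNA correction. The cause was not tested. With 1 sum or library left out, values ran from -0.026 to 0.17 for *Tgfb1* and -0.025 to 0.16 for *Smad7* in Myh11-low against Myh11-high cells, and from -0.16 to 0.26 for *Smad2* and -0.36 to 0.19 for *Smad7* in endothelial cells. In cycling against Myh11-low cells they ran from -0.12 to 0.12 for *Tgfb1*, -0.50 to 0.76 for *Tgfb3*, -0.077 to 0.57 for *Tgfbr1*, -0.079 to 0.41 for *Smad3* and -0.042 to 0.16 for *Ltbp1*. Within Myh11-high cells they ran from -1.54 to 0.20 for *Tgfb3*, -0.24 to 0.42 for *Tgfbr1*, -0.20 to 0.32 for *Tgfbr3*, -0.065 to 0.21 for *Smad2* and -0.060 to 0.13 for *Smad3*.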

Other observations

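Myh11-low cells were themselves mixed, and some members differed with genes that mark parts of them. These values are a description without a test. In Myh11-low cells with at least 2 UMIs of *Pdgfra*, a receptor gene of fibroblast-like cells (1387 and 1696 cells), *Tgfbr3* was at 34.2 and 29.2 CPM, against 21.4 and 17.7 CPM in those without a *Pdgfra* UMI (738 and 1449 cells). *Tgfbr2* was at 55.3 and 69.1 against 41.8 and 55.7 CPM. *Tgfb2* went the other way, at 71.5 and 96.0 against 99.1 and 143.9 CPM, and so did *Tgfb3*, at 85.6 and 44.3 against 114 and 53.3 CPM. The *Pdgfra*-positive cells were deeper, with a median of 22826 and 16995 UMIs against 15338 and 12267, and the part of depth was not tested. *Tgfb3* was also at 122.9 and 94.2 CPM in Myh11-low cells with at least 2 UMIs of *Fgf18*, a fibroblast growth factor gene, against 77.2 and 39.6 CPM in those without. With *Sox9*, a transcription factor gene of cartilage, it was at 73.7 and 32.4 against 107 and 62.0 CPM. *Tgfbr2* was at 62.2 and 66.3 CPM in cells with at least 2 UMIs of *Gpnmb*, a glycoprotein gene known from phagocytic cells, against 48.8 and 55.9 CPM. Positive cells were deeper here too. Median UMIs were 22710 and 16836 against 18057 and 14227 for *Fgf18*, 23498 and 17620 against 18339 and 13097.5 for *Sox9*, and 26012 and 16310 against 17823 and 10909 for *Gpnmb*. Some members turned between libraries, such as *Tgfb2* with *Sox9*, at 73.7 and 131 against 90.3 and 104 CPM.

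A UMI of all 10 members was found in 0 to 1.72% of the cells of a class. The median number of members with a UMI was 6 and 5 in Myh11-high and in cycling cells, 5 and 4 in Myh11-low and 4 and 3 in endothelial cells, in the order of median depth apart from the Myh11-high and cycling classes. *Tgfbr1* and *Tgfbr2*, the receptor pair, were both found in 27.8% and 19.5% of cycling, 21.1% and 16.6% of Myh11-high, 19.7% and 10.7% of Myh11-low and 19.6% and 9.22% of endothelial cells. No member was found in 2.67% and 2.31% of Myh11-low cells, and every Myh11-high cell had at least 1. All of these values are of cells at their own depth, so they do not show which genes a cell expressed. The part of depth in their differences between classes was not tested.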
